A study of Mus musculus with 21 samples.

Results

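Transcript levels of 8 genes were followed in hematopoietic stem cells (HSC) of tumour-prone mice that were sedentary, physically active or transplanted. The genes were Hdc, the histamine-forming enzyme histidine decarboxylase, and 7 genes of mast cells and basophils, Fcer1a, Ms4a2, Cpa3, Mcpt8, Prss34, Tpsg1 and Gata2. They were chosen by symbol, after a pattern in these same HSC libraries had been seen, and they are 8 of the 13380 genes listed in both HSC tables and of the 20392 genes listed in any table of the series. Because of that choice, their levels in HSC are given as a description, with no p-value. Counts of members past a threshold over all genes stand only beside the share of all genes past it, and support nothing. Levels in mammary tumours were not used in the choice and were tested for the 4 members that had values there.

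HDC makes histamine from the amino acid histidine, and histamine is stored in the granules of mast cells and basophils together with proteases such as carboxypeptidase A3 and the tryptases. Both cell types carry the high-affinity IgE receptor, in which an alpha chain binds IgE and a beta chain amplifies the signal. In bone marrow, Hdc is also known as a marker of myeloid-biased stem cells, and Gata2 is a transcription factor of stem cells as well as of mast cell and basophil precursors.

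All mice carried MMTV-PyMT, a transgene in which the promoter of mouse mammary tumour virus drives a polyoma virus oncogene in mammary epithelium, so no group was free of the tumour model. The 9 HSC libraries were 3 from sedentary and 3 from physically active mice at week 12, and 3 at week 14 from sedentary mice that had received cells of active mice, here called transplant HSC. Transplant HSC therefore differ from the others in week and in transplantation together, and the labels used here do not say which cells of the host remained or which markers were used to sort HSC. The 12 mammary tumours came from sedentary and active mice at week 12 and week 18, with 3 libraries per group. The labels call the libraries biological replicates without saying how many animals each one held, so p-values measure the spread between these libraries.

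Replicate 3 of each HSC group held 58500940 to 72417315 reads and the other HSC libraries 16406889 to 24574563, and the names of the deep libraries also contain a letter, so they form a batch of depth and name style that crosses the groups. A second feature of the data touches every value of active HSC. Active replicate 2, library 6 in the labels, has a column in each HSC table, and the reads of these columns differ at 13086 of 13380 genes, while the columns of active replicates 1 and 3 differ at 4 genes. The column in the table with sedentary HSC, headed P3 (6), is called 6A here. The one in the table with transplant HSC, headed P2 (6), is called 6B. Active replicates 1 and 3 have the same headers in both. Across 13380 genes, the log2 profile of 6A had its highest correlations with transplant replicates 2 and 1 (Pearson r = 0.980 and 0.976), and that of 6B had its highest with the sedentary libraries (0.985 to 0.986). Which column is library 6 could not be told, so active HSC are given with each.

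Kit and Procr were detected in every library. Kit, a receptor of stem and progenitor cells that is listed here with the mast cell genes, ranged from 5111 to 7261 normalized counts. Procr, a stem cell marker, ranged from 31.1 to 119.9. Other HSC identity genes were low in transplant HSC, with means of 10.7 for Prdm16 and 15.1 for Fgd5, against 144 and 52.9 in sedentary HSC. Of 12 such genes tested, 3 had a positive log2 fold change there, and Hoxb5 had no value. Some genes of the neutrophil list were also abundant. In sedentary HSC, Mpo, Prtn3, Ctsg and Elane had the highest means of that list, 65324, 16686, 13639 and 7471 normalized counts. S100a8, S100a9 and Lcn2, proteins of maturing neutrophils, had means of 372, 274 and 298 there. The summed level of the 12 genes of a neutrophil list was 84569 to 122654 normalized counts in sedentary HSC, 87961 to 441710 over the 4 active columns and 314920 to 405493 in transplant HSC. In bulk RNA, fewer cells of a type and less RNA per cell cannot be told apart.

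The regions upstream of 4 members are shown as examples of genes that were high and low in the same libraries. Their windows hold a GATA motif, the kind of site that GATA2 is known to bind. Hdc met both conditions too and is not shown. Mcpt8 had r = 0.946 with Cpa3 over the HSC columns and is left out because it has no match. The motif was thus part of the choice, and its link to the levels was not tested. In RefSeq (build GRCm38.p6) all 8 members had a start site, with 10 windows of 300 bases, 250 before and 50 after the start. The motif searched was AGATAA or AGATAG, or else TGATAA or TGATAG, on both strands, and neighbouring matches may share a base. Such a match was present in 6 of 8 members and 7 of 10 windows, and in 29.8% of all 32851 windows and 33.0% of all 27025 genes. Capitals mark the matches in the 250 bases before the start, written 5′ to 3′ on the strand of the gene, with TTATCT being AGATAA read on the other strand. The stretches are chr3:20242182-20242431 on the minus strand for Cpa3, chr17:25298144-25298393 on the plus strand for Prss34, chr19:11623720-11623969 on the minus strand for Ms4a2 and chr1:173227230-173227479 on the minus strand for Fcer1a.
Cpa3: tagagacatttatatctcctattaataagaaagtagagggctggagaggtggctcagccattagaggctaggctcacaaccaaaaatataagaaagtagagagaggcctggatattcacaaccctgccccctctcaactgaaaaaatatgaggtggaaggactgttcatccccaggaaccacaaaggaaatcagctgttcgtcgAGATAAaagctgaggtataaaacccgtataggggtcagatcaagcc
Prss34: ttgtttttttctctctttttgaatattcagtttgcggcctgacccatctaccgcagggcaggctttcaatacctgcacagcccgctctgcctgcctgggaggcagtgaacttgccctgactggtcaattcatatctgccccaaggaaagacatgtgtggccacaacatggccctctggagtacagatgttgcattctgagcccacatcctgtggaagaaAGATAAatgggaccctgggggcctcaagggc
Ms4a2: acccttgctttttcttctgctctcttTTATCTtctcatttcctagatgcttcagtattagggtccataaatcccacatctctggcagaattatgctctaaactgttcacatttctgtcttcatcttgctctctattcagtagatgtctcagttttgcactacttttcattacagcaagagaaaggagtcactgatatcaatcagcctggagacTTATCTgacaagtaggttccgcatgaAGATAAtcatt
Fcer1a: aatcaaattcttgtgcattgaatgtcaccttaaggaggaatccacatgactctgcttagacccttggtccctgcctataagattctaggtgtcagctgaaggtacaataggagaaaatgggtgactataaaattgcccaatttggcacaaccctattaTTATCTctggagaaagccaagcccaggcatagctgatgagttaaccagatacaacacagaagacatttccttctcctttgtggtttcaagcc
The match began 46 bases before the start in Cpa3 and 31 bases before it in Prss34. Ms4a2 had 3 matches, which began 224, 37 and 11 bases upstream, and Fcer1a had 1, at 92 bases. In Hdc the letters lay 221 bases upstream and in Tpsg1 93 bases upstream. The windows of Mcpt8 and Gata2 held none of these letters. A match is a run of letters and not a measured site of binding.

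Hdc, on chromosome 2 (GRCm38, 126593667 to 126619299, minus strand), spanned 580.4 to 8963 normalized counts over the HSC columns. Its values were 580.4, 689 and 2317 in sedentary replicates 1, 2 and 3. In active replicates 1 and 3 they were 1751 and 1812, and active replicate 2 had 7905 in column 6A and 1575 in column 6B. Transplant replicates 1, 2 and 3 had 8963, 5402 and 1702. The sedentary, active and transplant groups therefore overlapped with either column, since sedentary replicate 3 was above transplant replicate 3.

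The mean level of Hdc was 1196 ± 973 in sedentary HSC (SD, n = 3), 3823 ± 3535 in active HSC with column 6A, 1712 ± 123 with column 6B, and 5355 ± 3631 in transplant HSC. The order of the means was sedentary, active, transplant with either column, and neighbours in it differed by less than the larger of their SDs, except that transplant HSC and active HSC with 6B differed by about the SD of the transplant group. In the fits, the log2 fold change was 1.58 (SE 0.80) for active over sedentary HSC with 6A and 0.81 (SE 0.53) with 6B. For transplant over active HSC it was 1.34 (SE 0.60) with 6B and 0.57 (SE 0.85) with 6A, and for transplant over sedentary HSC it was 2.16 (SE 0.79).

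Within the batches the picture of Hdc was not the same. In replicates 1 and 2, the transplant mean was 11.3 times the sedentary mean. In replicate 3, transplant was 0.735 times sedentary and active was 0.782 times sedentary. With replicates 1 and 2 alone, the log2 fold change of Hdc for transplant over sedentary HSC was 3.46. The part of depth or batch in this was not tested.

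**Figure D1:**
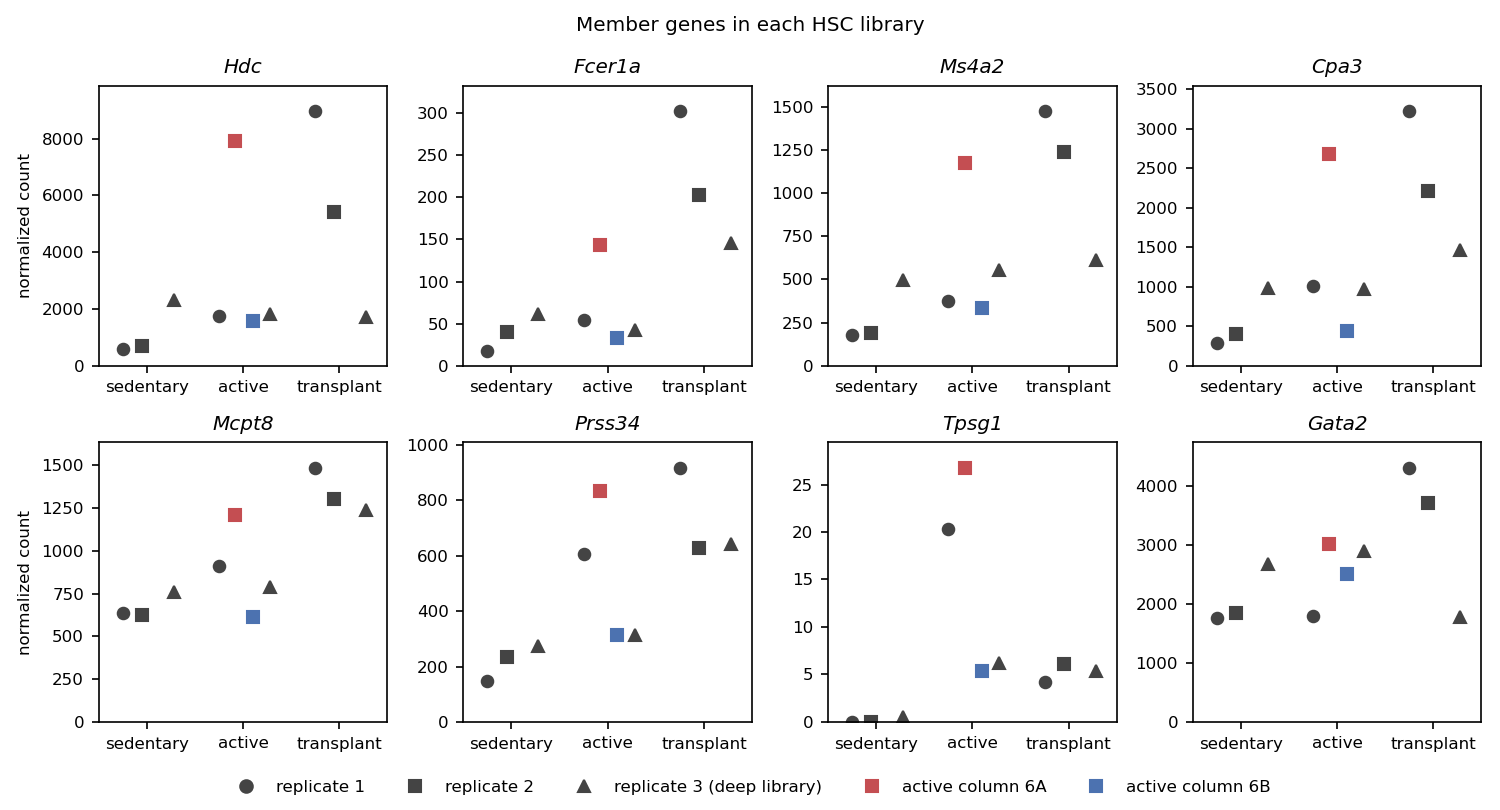
Normalized count (joint scale, linear axes that start at 0) of each member in each HSC library, by group; circles, squares and triangles are replicates 1, 2 and 3, and the 2 columns for active replicate 2 are red (6A) and blue (6B). Hdc is at 8963 and 5402 in transplant replicates 1 and 2 but at 1702 in replicate 3, whereas all 3 transplant libraries of Mcpt8 lie between 1239 and 1486.

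The chains of the IgE receptor were higher in all 3 transplant libraries than in the sedentary ones. Fcer1a (chromosome 1, 173221284 to 173227214, minus strand) encodes the alpha chain that binds IgE. It had 18.0, 40.6 and 61.5 normalized counts in the sedentary libraries, 53.8 and 43.0 in active replicates 1 and 3, and 144 in 6A or 32.4 in 6B. The transplant libraries had 302, 203 and 146, all above every other column, 6A included. The means were 40.0 ± 21.7 in sedentary, 80.2 ± 55.3 (6A) or 43.0 ± 10.7 (6B) in active and 217 ± 79.1 in transplant HSC (SD, n = 3 each). The log2 fold change of transplant HSC was 2.51 (SE 0.50) over sedentary and 2.27 (SE 0.32) over active HSC with 6B, or 1.57 (SE 0.52) with 6A. In active over sedentary HSC it was 0.94 (SE 0.62) with 6A and 0.24 (SE 0.46) with 6B.

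Ms4a2 (chromosome 19, 11615523 to 11623719, minus strand) encodes the beta chain. Its values were 179.8, 189 and 494 in sedentary HSC, 373 and 552 in active replicates 1 and 3, 1174 in 6A and 332 in 6B, and 1474, 1238 and 615 in transplant HSC. The transplant libraries were above the sedentary ones and above the active ones with 6B, but 6A lay between transplant replicates 3 and 2. The means were 288 ± 179 in sedentary and 1109 ± 444 in transplant HSC (SD, n = 3 each), or 2.02 (SE 0.51) as a log2 fold change. In replicates 1 and 2 the ratio of transplant to sedentary was 7.36, and in replicate 3 it was 1.24. For Fcer1a these ratios were 8.64 and 2.37.

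Among the granule proteases, Cpa3 (chromosome 3, 20215620 to 20242181, minus strand), the mast cell carboxypeptidase, followed Ms4a2 and Hdc. It was at 293, 395 and 987 in sedentary HSC, at 1008 and 968 in active replicates 1 and 3, at 2678 in 6A and 445 in 6B, and at 3219.6, 2215 and 1460.3 in transplant HSC. Transplant and sedentary libraries did not overlap. The lowest transplant library, replicate 3, was 1.48 times sedentary replicate 3, while replicates 1 and 2 together were 7.90 times the sedentary ones. The means were 558 ± 375 in sedentary and 2298 ± 883 in transplant HSC (SD, n = 3 each), or 2.17 (SE 0.52) as a log2 fold change.

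Mcpt8 and Prss34 encode serine proteases known mainly from basophils. Mcpt8 (chromosome 14, 56082166 to 56085273, minus strand) was at 638, 624 and 761 in sedentary HSC, 912 and 786 in active replicates 1 and 3, 1211 in 6A and 611 in 6B, and 1486, 1303 and 1239 in transplant HSC. The transplant libraries lay above every other column. Its mean went from 674 ± 75.2 to 1343 ± 128 between sedentary and transplant HSC (SD, n = 3 each), with ratios of 2.21 in replicates 1 and 2 and 1.63 in replicate 3. The log2 fold change of transplant over sedentary HSC was 0.99 (SE 0.14).

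Prss34 (chromosome 17, 25298394 to 25300165, plus strand) was at 149, 233 and 275 in sedentary HSC, 607 and 313 in active replicates 1 and 3, 834 in 6A and 315 in 6B, and 918, 627 and 644 in transplant HSC. All active columns lay above all sedentary libraries, with 6A and with 6B. The sedentary mean was 219 ± 64.2, the active mean 585 ± 261 with 6A or 412 ± 169 with 6B, and the transplant mean 729 ± 163 (SD, n = 3 each). Its log2 fold change for active over sedentary HSC was 1.35 (SE 0.43) with 6A and 0.88 (SE 0.36) with 6B, and for transplant over sedentary HSC it was 1.76 (SE 0.28). The ratio of transplant to sedentary was 4.05 in replicates 1 and 2 and 2.34 in replicate 3.

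Tpsg1 (chromosome 17, 25369273 to 25374442, plus strand), which encodes a membrane-bound tryptase of mast cells, was close to the limit of detection. Sedentary replicates 1, 2 and 3 held 0, 0 and 1 read. Active replicates 1 and 3 held 17 and 15 reads, column 6A 19 and column 6B 4, and the transplant libraries 3, 5 and 13. Scaled to depth, active replicate 1 and 6A were the highest with 20.3 and 26.8 normalized counts, and the other active and transplant columns lay between 4.24 and 6.20. The pooled reads per total reads were 40.7 times those of sedentary HSC in active HSC with 6A, 28.5 times with 6B and 16.7 times in transplant HSC. These ratios rest on 1 sedentary read and pool the 3 libraries of each group, so they leave out the spread between libraries. The reads carry no molecular identifiers. Tpsg1 overlaps Cacna1h on the opposite strand, and whether the authors counted by strand is not given in the sources used here, so its reads cannot be assigned with certainty.

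Gata2 (chromosome 6, 88193891 to 88207032, plus strand) had the smallest fold change of the members between transplant and sedentary HSC. It was at 1764, 1841 and 2673 in sedentary HSC, 1799 and 2895 in active replicates 1 and 3, 3014 in 6A and 2510.1 in 6B, and 4314, 3723 and 1778 in transplant HSC. The groups overlapped in every comparison, and transplant replicate 3 lay between sedentary replicates 1 and 2. The log2 fold change of transplant over sedentary HSC was 0.57 (SE 0.38), with a ratio of 2.23 in replicates 1 and 2 and 0.665 in replicate 3.

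**Figure D2:**
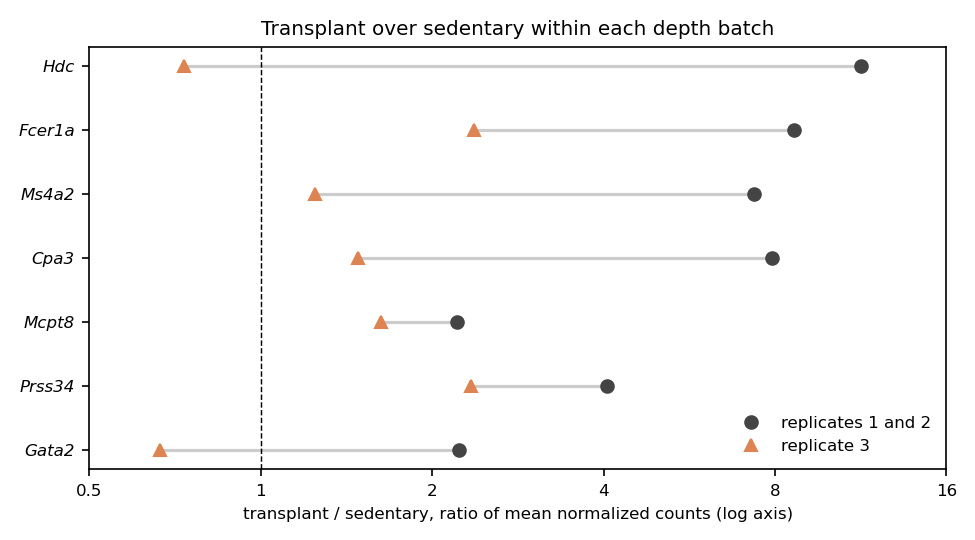
Ratio of the mean normalized count in transplant to that in sedentary HSC (log axis) for 7 members, in replicates 1 and 2 (circles, means of 2 libraries each) and in the deep replicate 3 (triangles, 1 library each); Tpsg1 is left out because sedentary replicates 1 and 2 held 0 reads. Every triangle lies to the left of its circle, and those of Hdc (0.735) and Gata2 (0.665) lie below 1.

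Per length of transcript (RPKM, from recovered reads and the summed exons of GENCODE M21), the order of mean levels in sedentary HSC was Mcpt8 with 23.1, Gata2 with 13.3, Cpa3 with 12.6, Hdc with 6.41, Prss34 with 6.14, Ms4a2 with 3.50, Fcer1a with 1.37 and Tpsg1 with 0.00411. In transplant HSC the order was Cpa3 with 51.9, Mcpt8 with 46.1, Hdc with 28.8, Gata2 with 20.8, Prss34 with 20.5, Ms4a2 with 13.5, Fcer1a with 7.46 and Tpsg1 with 0.129. Several neighbours in these orders differed by less than the larger of their SDs. In sedentary HSC they were Gata2 and Cpa3, Cpa3 and Hdc, Hdc and Prss34, and Ms4a2 and Fcer1a. In transplant HSC they were Cpa3 and Mcpt8, Mcpt8 and Hdc, Hdc and Gata2, and Gata2 and Prss34.

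The first comparison asked how the members differed between active and sedentary HSC. With column 6A, Mcpt8, Prss34 and Tpsg1 were higher in every active than in every sedentary library, 3 of 8 members, where 10.4% of all 13513 genes were higher in this sense. The other 5 overlapped. With column 6B, 2 members, Prss34 and Tpsg1, were higher without overlap, against 3.17% of 13367 genes. The fold changes of all 8 members were positive with both columns, and the median of all genes was 0.0037 on the log2 scale. limma called 0% of the 13513 genes, 1252 of which had an unadjusted p under 0.05, and on recovered reads edgeR called 0 and DESeq2 257.

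Transplant and active HSC were compared next, and this comparison shares the active libraries with the first. With column 6B, Fcer1a, Ms4a2, Cpa3, Mcpt8 and Prss34 were higher in every transplant library, 5 of 8 members, where 13.1% of all 13633 genes were. With column 6A, Fcer1a and Mcpt8 were higher without overlap, against 2.68% of 13380 genes, and Tpsg1 was lower without overlap, against 3.33%. The log2 fold changes of Cpa3 and Ms4a2 were 1.52 (SE 0.43) and 1.34 (SE 0.39) with 6B, and 0.66 (SE 0.50) and 0.74 (SE 0.53) with 6A. Those of Prss34 and Mcpt8 were 0.87 (SE 0.32) and 0.81 (SE 0.18) with 6B, and 0.41 (SE 0.39) and 0.49 (SE 0.19) with 6A. limma called 0.0513% of the 13633 genes, and no member was among them.

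Transplant and sedentary HSC do not involve library 6, although they come from different tables. All members except Hdc and Gata2 were higher in every transplant library, 6 of 8, where 20.3% of all 13329 genes were. limma called 11.7% of all genes (7.94% higher and 3.71% lower in transplant HSC), and 4 of 8 members, Fcer1a, Mcpt8, Prss34 and Tpsg1, were among the higher ones. Since this contrast was in view when the members were chosen, nothing is read from that count. The count was 7 with edgeR, which called 19.3% of all genes, and 5 with DESeq2, which called 23.9%. Without 1 library it was between 1 and 6, where 1.77% to 12.6% of all genes were called. It was 0 with the replicate number as a block, where 0.713% were called, and 8 in replicates 1 and 2 alone, where 14.7% were called.

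**Figure D3:**
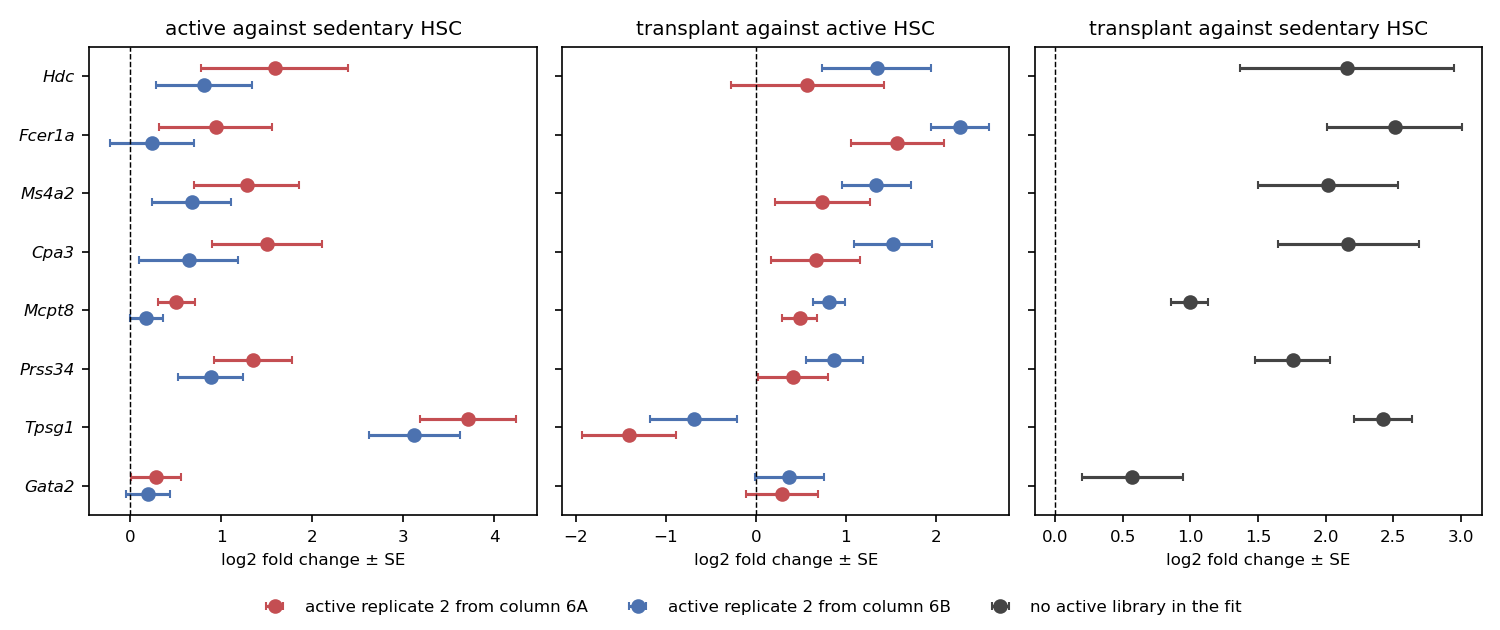
Log2 fold change ± SE of each member in the 3 HSC comparisons (3 panels, each with its own linear axis), with active replicate 2 taken from column 6A (red) or column 6B (blue); black points are fits with no active library. Hdc moves from 1.58 to 0.81 in active over sedentary HSC when 6A is replaced by 6B, and Gata2 lies nearest to 0 in the right panel, at 0.57.

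Across the 10 HSC columns, the log2 levels of the members tended to go together. The columns share the 3 groups and the depth batch, so the correlations describe these libraries and carry no test. Pearson r was 0.971 between Ms4a2 and Cpa3, 0.967 between Hdc and Ms4a2, 0.940 between Hdc and Cpa3 and 0.954 between Fcer1a and Mcpt8. It was lowest between Tpsg1 and Gata2, at 0.28. The members also went with genes of other lineages. With the log2 sum of the megakaryocyte list, r was 0.940 for Hdc and 0.965 for Cpa3. With that of the neutrophil list it was 0.941 for Mcpt8, 0.735 for Hdc and 0.35 for Gata2. With the sum of the HSC identity list it was -0.932 for Mcpt8 and -0.690 for Hdc. That sum mostly follows Cd34, which alone had a mean of 16660.5 in sedentary HSC, where the sum was 21468 to 25634.

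The genes most like Hdc were ranked by the smaller of their 2 correlations, each over the 6 libraries of 1 HSC table, among 10627 genes. The first 5 were Btg2 with 0.982, Snx14 with 0.980, Cnnm2 with 0.977, Adora3 with 0.977 and Hk1 with 0.976. Btg2 was at 309, 326 and 895 normalized counts in sedentary HSC, at 745, 1491 (6A), 661 (6B) and 686 in active HSC, and at 1749.6, 1223 and 778 in transplant HSC. It was thus high in the same libraries as Hdc, sedentary replicate 3 included. Of the members, Ms4a2 ranked 80, Cpa3 381, Fcer1a 455, Gata2 633, Mcpt8 840 and Prss34 1150. Tpsg1 was below the level set for the ranking.

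Genes around the members were read from 14 lists, which were chosen with earlier results of these data known. In active over sedentary HSC with 6A and transplant over active HSC with 6B, limma called 0 of 117 and 0 of 120 listed genes. On recovered reads DESeq2 called 15 and 35 of them and edgeR 0 and 0. Of the 117 and 120 genes, 29 and 51 had an unadjusted p under 0.05 with limma. In transplant over sedentary HSC, 43 of 116 listed genes passed with limma, where 11.7% of all 13329 genes did. With the replicate number as a block, 6 listed genes passed, where 0.713% of all genes did. The values below are for transplant over sedentary HSC without the block. The median of all genes in that comparison was -0.00046 on the log2 scale.

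Of the genes that store, degrade or sense histamine, 0 of 5 tested passed with limma and 1 had an unadjusted p under 0.05, and the median log2 fold change was 0.034. Slc18a2, the transporter that loads histamine into granules, had the pattern of Hdc. It was at 531, 607 and 1334 normalized counts in sedentary and at 3899, 2992 and 1287 in transplant HSC, and its log2 fold change was 1.71 (limma adjusted p 0.0937). Hrh2, a histamine receptor, stayed between 164 and 274 in every column.

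In the IgE receptor signalling list, 1 of 12 genes passed, higher in transplant HSC, with a list median of 0.25. It was Lcp2, an adaptor protein, higher by 1.07 on the log2 scale (limma adjusted p 0.0491). Fcer1g, the gamma chain that the IgE receptor shares with other receptors, was at 1.15 with a limma adjusted p of 0.0753. Fyn was lower, at -0.61 (limma adjusted p 0.0667), and 8 of the 12 genes had a positive log2 fold change.

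Of the other mast cell genes, 2 of 8 tested passed, both higher, and the median was 1.92. Cyp11a1, an enzyme of steroid synthesis found in mast cells, rose from 277 ± 194 in sedentary to 1946 ± 654 normalized counts (SD, n = 3 each; log2 fold change 2.97, limma adjusted p 0.0270). Srgn, the granule proteoglycan serglycin, rose from 12319 ± 1693 in sedentary to 34602 ± 2519 (1.50, limma adjusted p 0.00908). Il1rl1, the receptor of interleukin 33, was at 257, 374 and 907 in sedentary and 2707, 2152 and 1092 in transplant HSC, with a limma adjusted p of 0.0681. Of the other mast cell proteases measured, Tpsb2, a tryptase, was at 0, 3.53 and 8.0 in sedentary, at 41.8, 139.5 (6A), 0 (6B) and 7.02 in active, and at 29.7, 23.3 and 28.6 in transplant HSC. Cma1, a chymase, was at 6.54 to 33.0 in sedentary, 2.70 to 223 over the active columns and 49.0 to 80.5 in transplant HSC. Mcpt2, another of these proteases, was not higher in transplant HSC, with 0, 1.22 and 0.82 against 1.63, 0 and 0.50 in sedentary HSC. In active HSC it was at 9.56, 47.9 (6A), 0 (6B) and 1.24. Mcpt1, Mcpt4, Tpsab1, Mrgprb2 and Rgs13 of this list, and Il4 and Il13 of the basophil list, were not listed in both HSC tables.

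Of the other basophil genes, 6 of 12 passed, all higher in transplant HSC, with a median of 0.84. Cd200r3, an activating receptor of basophils and mast cells, rose from 11.8 ± 13.4 in sedentary to 166 ± 70.8 normalized counts (SD, n = 3 each; log2 fold change 4.21, limma adjusted p 0.0376). Il3ra and Csf2rb, which form the receptor of interleukin 3, rose by 0.86 and 0.61 on the log2 scale, with limma adjusted p of 0.0228 and 0.0289. Alox5, the enzyme that starts leukotriene synthesis, rose from 1149 ± 763 to 5224 ± 2029 normalized counts (limma adjusted p 0.0492). Il6 and Itga2 were also called, with log2 fold changes of 2.04 and 2.60. These calls are not independent of the members, since the same 6 libraries were compared. Neutrophil and megakaryocyte genes rose in this comparison too, as given below. The part of other cell types in the calls of the mast cell and basophil lists was not tested.

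Among 13 transcription factors of mast cells and basophils, 1 passed, Cebpa, higher by 0.86 (limma adjusted p 0.0434), and the median was 0.30. Of the 13, 9 had a positive log2 fold change. Gata1, a factor of mast cells, erythroid cells and megakaryocytes, was at 118, 136 and 326 in sedentary HSC. It was at 932, 696 and 391 in transplant HSC, with a limma adjusted p of 0.0651. Ldb1 of the same list was lower there, at -0.49 (limma adjusted p 0.0637). In the eosinophil list 1 of 8 genes passed, Siglecf, a surface lectin, at 1.40 (limma adjusted p 0.0214), with a median of 0.52. Epx and Prg2, granule proteins of eosinophils, were at 177 to 479.8 and 126 to 209.8 normalized counts in sedentary HSC. They were at 371 to 579 and 218 to 318 in transplant HSC (limma adjusted p 0.508 and 0.160). Of the 8 eosinophil genes, 5 had a positive log2 fold change. Ear1, Ear2 and Ear6 of that list were at -2.84, -0.85 and -0.53 (limma adjusted p 0.0736, 0.535 and 0.634).

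Of the list of myeloid-biased HSC, 5 of 8 genes passed, all higher in transplant HSC, with a median of 1.73. They were Vwf, Clu, Itga2b, Slamf1 and Selp, with log2 fold changes of 3.33, 2.76, 2.01, 1.72 and 1.68 and limma adjusted p from 0.0137 to 0.0472. Slamf1, a surface marker of HSC, was at 47.4, 51.1 and 48.0 in sedentary and at 299, 142 and 101 in transplant HSC, so it did not share the high value of Hdc in sedentary replicate 3. Of 12 tested genes of the HSC identity list, 5 were lower in transplant HSC, with a median of -0.85. Flt3, a receptor of progenitors, and Prdm16, a regulator of stem cell maintenance, had log2 fold changes of -4.18 and -3.70. Cd34, Mecom and Hlf had -1.24, -1.23 and -1.13. Since Flt3 belongs to progenitors, the lower genes are not stem cell genes alone.

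The lists of other lineages moved as well. All 12 neutrophil genes rose in transplant HSC, with a median of 2.79, and so did all 8 megakaryocyte genes, with a median of 3.44. S100a8, S100a9 and Lcn2, proteins of maturing neutrophils, rose by 4.13, 4.74 and 2.94 on the log2 scale (limma adjusted p 0.00516 each), Ngp by 5.0 (0.00740) and the platelet gene Ppbp by 4.77 (0.00908). Of 8 monocyte and macrophage genes 3 rose, F13a1, Ly6c2 and Lyz2, with a median of 1.29. No erythroid gene of 7 passed with limma (4 had an unadjusted p under 0.05), with a median of 1.43, and none of 3 B cell genes did (2 at an unadjusted p under 0.05). Of 2 T cell genes, Lck was lower. Vwf and Itga2b stand in both the megakaryocyte and the myeloid-biased list. The part of these other cell types in the levels of the members was not tested.

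**Figure D4:**
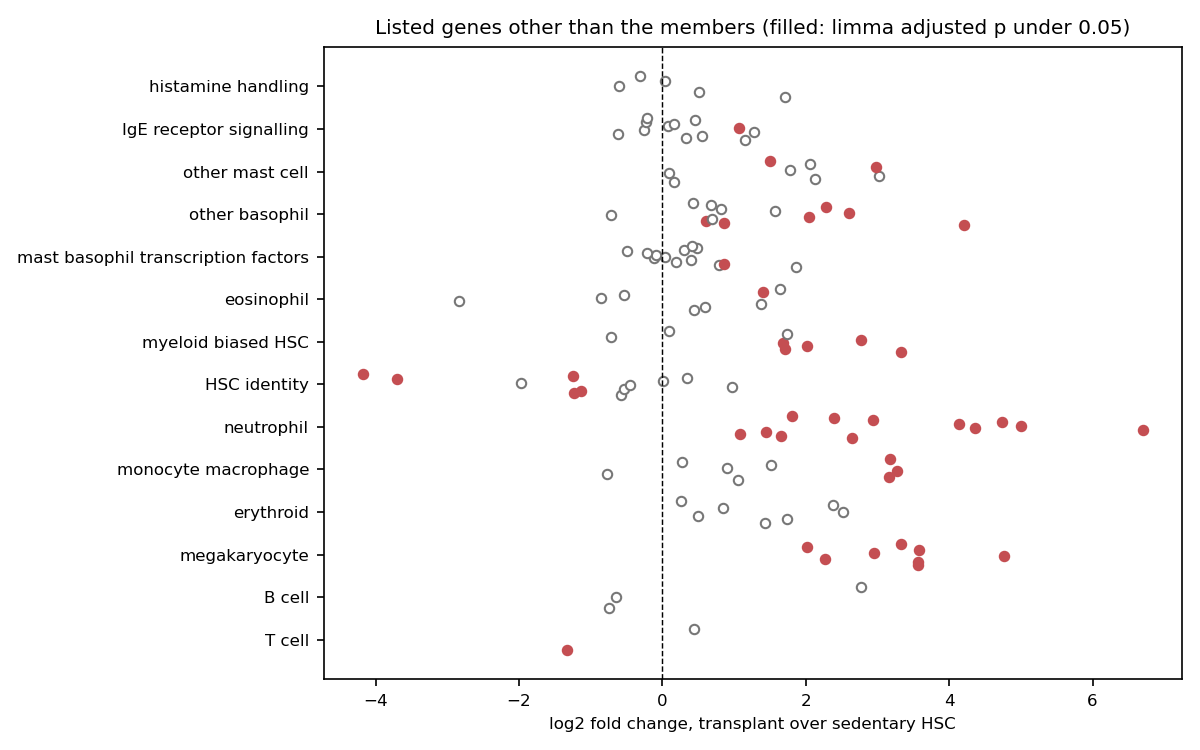
Log2 fold change of transplant over sedentary HSC (x axis) for each tested gene of the 14 lists other than the members (1 row per list; vertical offsets only separate points); red points had a limma adjusted p under 0.05. All 12 neutrophil and all 8 megakaryocyte genes are red and to the right of 0, as are 6 of 12 other basophil and 2 of 8 other mast cell genes, while the 5 red points of the HSC identity list lie to the left.

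In the other comparisons of HSC, the listed genes with the largest differences between groups that did not overlap came from the neutrophil, megakaryocyte and HSC identity lists. In active over sedentary HSC they were the neutrophil genes Ngp and S100a9 and the megakaryocyte genes Ppbp and Gp9, with log2 fold changes of 4.28, 3.66, 3.65 and 2.99 with column 6A and 2.07, 1.60, 1.53 and 1.87 with 6B (limma adjusted p 0.475 each with 6A). In transplant over active HSC they were the neutrophil gene Ltf, Flt3 and Prdm16 of the HSC identity list, and Ppbp. Their log2 fold changes were 3.81, -3.47, -3.46 and 3.23 with 6B, where the limma adjusted p ran from 0.118 to 0.212. With 6A they were 1.27, -1.75, -3.43 and 1.12. The other mast cell and other basophil lists had medians of 1.47 and 0.94 in active over sedentary HSC with 6A, over 9 and 12 genes. In transplant over active HSC with 6B they had 1.08 and 0.71, over 10 and 13 genes. The medians with the other column are not given, and these lists differed much between the columns. Their summed normalized counts were 52374 and 33234 in 6A and 18998 and 15159 in 6B.

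In mammary tumours, where the members were not chosen, the question was whether the same genes differed between active and sedentary mice. Values of Hdc, Ms4a2, Cpa3 and Gata2 were analysed. The other 4 members, Fcer1a, Mcpt8, Prss34 and Tpsg1, had no value in tumours and could not be compared there. At week 12 limma called 0.517% of 19162 genes and at week 18 0% of 18939 genes, where 1131 had an unadjusted p under 0.05 and edgeR called 0 and DESeq2 52. None of the 4 members was called at either time, with limma, edgeR or DESeq2, and none had an unadjusted p under 0.05 with limma. Hdc at week 12 was at 12.0, 22.1 and 7.49 normalized counts in sedentary and at 24.6, 12.4 and 74.7 in active tumours, groups that overlapped. The means were 13.9 ± 7.50 and 37.2 ± 33.0 (SD, n = 3 each), and the fit gave 1.11 (SE 0.73) as log2 fold change, at a limma adjusted p of 0.970.

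At week 18 Hdc was at 0, 45.5 and 14.9 in sedentary and 8.32, 9.62 and 20.5 in active tumours. The mean was lower in active tumours, 12.8 ± 6.69 against 20.1 ± 23.2 (SD, n = 3 each), while the log2 fold change of the fit was positive, 0.51 (SE 1.45, limma adjusted p 0.943), because sedentary replicate 1 held 0 reads. Without that library it was -1.08.

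Cpa3 varied most between single tumours. It was at 62.4, 76.9 and 60.8 normalized counts in sedentary tumours of week 12 and at 179, 9.27 and 251 in active ones, so active tumours lay on both sides of the sedentary ones, with a log2 fold change of 0.20 (SE 1.26, limma adjusted p 0.990). At week 18 it was at 5.74, 87.0 and 57.5 in sedentary and 0, 25.4 and 42.8 in active tumours, with a log2 fold change of -1.64 (SE 1.76, limma adjusted p 0.851). Ms4a2 stayed at 11.2 or below in all 12 tumours, with log2 fold changes of 0.77 (SE 1.03) and -1.10 (SE 0.79) and limma adjusted p of 0.970 and 0.824. Gata2 was at 52.8, 63.2 and 67.4 in sedentary and 78.4, 29.9 and 213 in active tumours of week 12, and its log2 fold changes were 0.38 (SE 0.71) and -0.90 (SE 0.54), with limma adjusted p of 0.971 and 0.824. Active replicate 3 of week 12 was the highest tumour for Hdc, Cpa3 and Gata2.

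**Figure D5:**
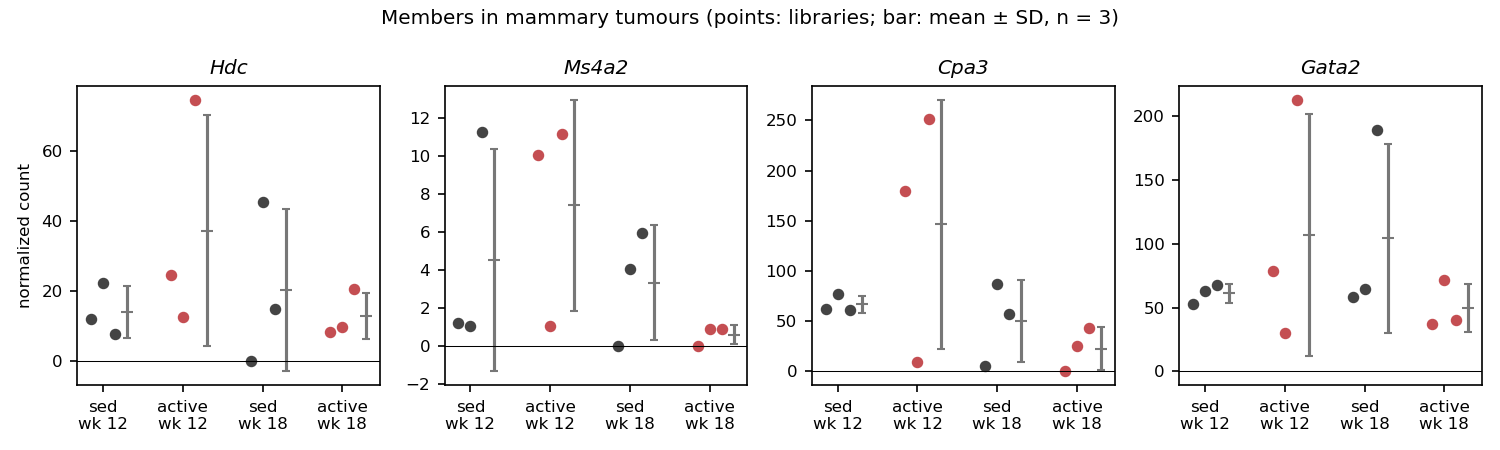
Normalized count (linear axes) of the 4 members analysed in mammary tumours of sedentary (black) and active (red) mice at weeks 12 and 18; points are libraries and bars are means ± SD (n = 3). The groups overlap for all 4 genes at both times, and 1 active tumour of week 12 holds the highest value of Hdc (74.7), Cpa3 (251) and Gata2 (213).

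Other mast cell and basophil genes in the tumours gave 0 calls with limma in either week, over 10 and 11 mast cell genes and 12 basophil genes, and 0 had an unadjusted p under 0.05. The listed mast cell or basophil genes with the highest level in tumours were Kit, Itga2, Srgn and Csf2rb. They had log2 fold changes of -0.38, -0.28, 0.75 and 1.06 at week 12 (limma adjusted p 0.970 each) and of 0.19, 1.04, 0.75 and 0.23 at week 18 (limma adjusted p 0.924, 0.824, 0.829 and 0.936). Kit is also expressed outside mast cells, and its mean over the 12 tumours was 11203 normalized counts against 666 for Srgn.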

How the data were processed

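RNA was sequenced from 9 HSC libraries and 12 mammary tumours with a stranded mRNA kit, per the labels' protocols. The authors deposited 4 tables of normalized signal per gene. The build is mm10 per the submitters' processing notes, and the aligner and counter are not given in the sources used here. Values were whole multiples of 1 step per column (100% of values, tolerance 0.01 of a read), so reads were recovered. The whole reads of the 10 distinct HSC columns were scaled together by the median of ratios over 13380 genes for the levels given.

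Comparisons used limma 3.58.1 in R 4.3.3 on log2(value + 1), on genes whose mean reached 1 in either group, with Benjamini-Hochberg adjustment at 0.05 over all genes; fold changes on this scale understate low genes. edgeR 4.0.16 (quasi-likelihood) and DESeq2 1.42.0 on recovered reads, TMM scaling, no filter, pseudocounts 0.1 and 10, the replicate block, leaving out libraries, replicates 1 and 2 alone and the other column for library 6 were alternatives, and the procedure was tested on simulated data. The design foresaw a count test or limma according to the unit, and the normalized unit led to limma.

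The members and the 14 gene lists were chosen with earlier results of these data known. Besides the members, the text names per HSC comparison up to 6 listed genes past the threshold with the smallest p or, with none, up to 4 with the largest change among those without overlap and a higher group mean of 20 or more. In tumours it names the 4 mast cell or basophil genes of the highest mean, and for Hdc the 5 most similar genes at a mean of 50 or more in both tables. Other genes named from the lists were picked after their values were seen. After subtraction of group means, libraries with the same number correlated above 0.1 in every pair for transplant against active HSC (r = 0.104, 0.115 and 0.319). They did so too for tumours of week 18 (0.164, 0.159 and 0.140), where pairs with different numbers had -0.149 to 0.041. In HSC, active replicate 1 and transplant replicate 2, with different numbers, also had 0.104. The labels do not say that numbers pair the libraries, and the main fits were unpaired.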

Additional observations from a re-analysis of the deposited data

How the results depend on the processing

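Limits: with 3 libraries per group, 1 library can decide a value, and the counts of called genes moved with the processing. Genes past the threshold numbered 0 in active against sedentary HSC, where DESeq2 gave 257 and pseudocount 0.1 gave 1, with 0 to 0 in fits without 1 library. In transplant against active HSC the count was 7, and 1 with edgeR, 1107 with DESeq2, 1 with the other column for library 6, 0 in replicates 1 and 2 alone and 0 to 79 without 1 library (0 without active or transplant replicate 2, 79 without active replicate 1). Transplant against sedentary HSC gave 1553, and 2566 with edgeR, 3181 with DESeq2 and 236 to 1674 without 1 library, the lowest without sedentary replicate 2. Of these, 43 were listed genes other than the members, with 12 to 46 without 1 library, the lowest without transplant replicate 2. Week 12 tumours gave 99, and 208 with DESeq2 and 9 to 71 without 1 library, the lowest without sedentary replicate 3. Week 18 tumours gave 0, and 52 with DESeq2, 1 without a filter, 5 with pseudocount 0.1 and 0 to 5 without 1 library. With the replicate number as a block, the counts in these 5 comparisons were 0, 0, 95, 0 and 0, and 6 listed genes were called in transplant against sedentary HSC. Libraries with the same number correlated above 0.1 in every pair only in transplant against active HSC and in week 18 tumours. The labels do not say that numbers pair the libraries in any comparison. The cause of these shifts was not tested, apart from the smaller number of libraries in some fits.

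Of 352 alternative values of the members' log2 fold changes in HSC, 331 stayed within the replicate spread and 21 moved further, none with a change of sign. Those 21 came from the other column for library 6, from replicates 1 and 2 alone and from Tpsg1, whose value depends on the pseudocount. Of 104 values in tumours, 8 changed sign and none of these was past the threshold. For Hdc at week 18 they were -0.63 with edgeR, -0.64 with DESeq2, -0.11 with pseudocount 10 and -1.08 without sedentary replicate 1. In fits without 1 library the values ran from -0.65 to 1.66 for Cpa3 and from -0.32 to 1.08 for Gata2 at week 12, and from -1.08 to 1.69 for Hdc and from -2.77 to 0.058 for Cpa3 at week 18. The changed signs were those of Cpa3 without active replicate 1 (-0.40) and active replicate 3 at week 12 and without active replicate 1 at week 18, of Gata2 without active replicate 3 at week 12 and of Hdc as above. Depth limits Tpsg1 in HSC and Ms4a2 in tumours, which held few reads.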
